A study of Homo sapiens with 18 samples.

Results

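The 10 genes described here encode the core of the human microRNA pathway: the Argonautes AGO1, AGO2, AGO3 and AGO4, the Argonaute-binding scaffolds TNRC6A, TNRC6B and TNRC6C, the nucleases DROSHA and DICER1, and the export receptor XPO5. They were chosen by gene symbol, with no threshold on their values but with earlier results of these data known, from the 16715 genes listed for either cell line. All 10 were listed in both lines and passed the filter on low values. PolyA+ RNA was sequenced from MCF10A, an immortalized line of breast epithelial cells, and from hTERT RPE-1, retinal pigment epithelial cells immortalized with telomerase. Each line was transfected for 72 h at 30 nM with a non-targeting siRNA (siNT, the negative control) or with a mimic of a MIR-28 family member, either hsa-miR-28-5p or else hsa-miR-708-5p. Where 2 values stand together for a line, that of hsa-miR-28-5p comes first. There were 3 libraries in each of the 6 groups, numbered 7 to 9 in MCF10A and 1 to 3 in hTERT RPE-1. All groups carried a transfected small RNA, so no untransfected level of these genes was analysed here. The question behind the choice was whether the machinery that loads the mimics differed between a line with weaker and a line with stronger repression of RPS28, the small-subunit ribosomal protein transcript that the study followed.

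A microRNA is cut from its primary transcript in the nucleus by DROSHA, carried to the cytoplasm by XPO5 and trimmed to a duplex by DICER1. A strand of that duplex is loaded into an Argonaute, which it then guides to messenger RNAs that pair with its seed, usually in the 3′ UTR. The Argonaute recruits a TNRC6 scaffold, which brings in deadenylases and decapping factors that silence and shorten the life of the message. A transfected mimic is already a duplex, so it enters at the Argonaute step, and AGO2 is the family member best known for slicing perfectly paired targets.

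The seed is shown because the 3′ UTRs of the members were searched for matches to it. RefSeq gives the mature hsa-miR-708-5p, from chr11:79402077-79402099 on the minus strand of GRCh38.p14, as follows, with the seed (bases 2 to 8) in capitals. Both mimics carry the same seed.
hsa-miR-708-5p: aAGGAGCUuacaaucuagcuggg
In DNA letters the matching sites are AGCTCCTA (an 8mer), AGCTCCT or GCTCCTA (7mers) and GCTCCT (a 6mer), read on the strand of the transcript only, each site being counted under its longest form. Within the 3′ UTRs of the GENCODE 44 canonical transcripts (hg38), 3 sites of at least 7 bases were found in the 10 members, 2 in AGO1 and 1 in TNRC6B, and they are shown with 9 flanking bases and the match in capitals.
AGO1 8mer, exon 19, chr1:35923211-35923218, plus strand: tccctaaaaAGCTCCTAatgcccacc
AGO1 7mer, exon 19, chr1:35922701-35922707, plus strand: gtcaggcttAGCTCCTtgactgcag
TNRC6B 7mer, exon 23, chr22:40324151-40324157, plus strand: aaagcagggAGCTCCTttccatttg

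AGO1 was the only member with an 8mer, and its 3′ UTR of 10925 nt also held 2 6mers. TNRC6B, with a 3′ UTR of 12567 nt, held 4 further 6mers. AGO3, TNRC6A and TNRC6C held 1 6mer each, and AGO4, DICER1, DROSHA and XPO5 held no match in this window. Coding sequences also held matches of at least 6 bases, 3 each in AGO1 and TNRC6C and 2 each in AGO2, AGO4 and TNRC6B. TNRC6A and DICER1 held 1 each there, and AGO3, DROSHA and XPO5 held 0. Among 19547 canonical 3′ UTRs, 17.1% held a 7mer or 8mer and 2.17% an 8mer, and among the 844 of at least 6000 nt these shares were 57.4% and 10.6%. AGO1 and TNRC6B are in that longer class, so a match there is not uncommon. A match is a description of the letters and not a measured site of binding.

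**Figure D1:**
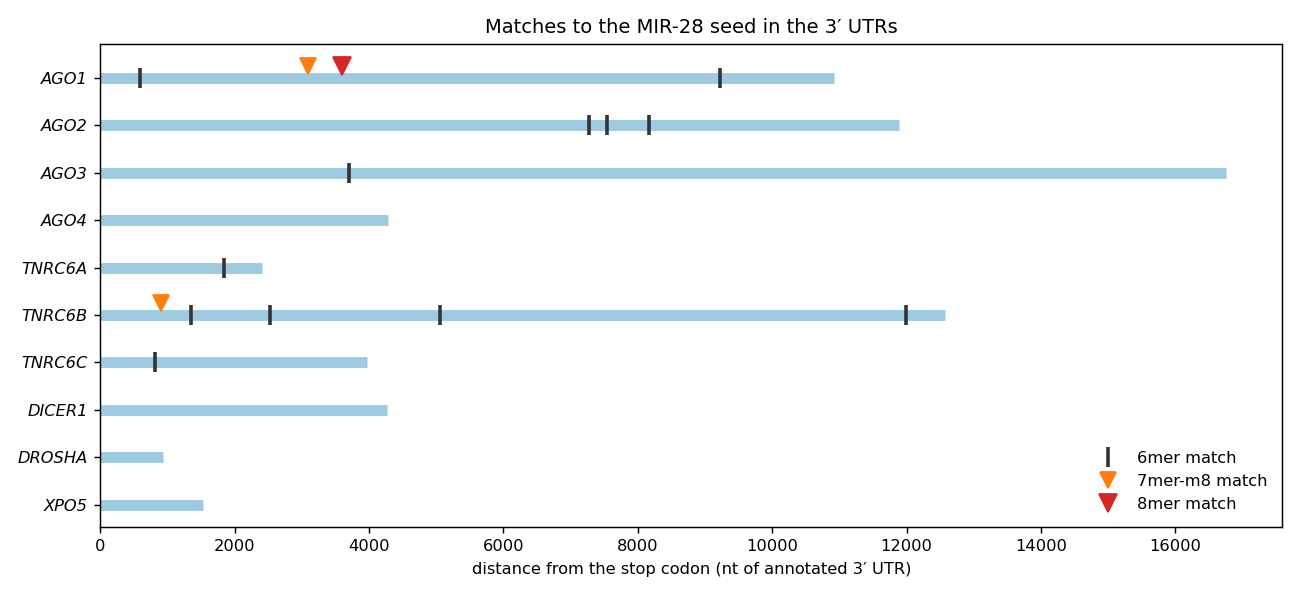
Matches to the MIR-28 seed along the annotated 3′ UTR of each member, drawn to scale from the stop codon (nt), with triangles for 8mer and 7mer matches and ticks for 6mers. AGO1 carries the only 8mer, at nucleotide 3604 of its 3′ UTR, and AGO4, DICER1, DROSHA and XPO5 carry no match in theirs.

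AGO4, AGO1 and AGO3 lie in a row on the plus strand of chromosome 1 (hg38), with AGO4 at chr1:35808016-35857890, AGO1 at chr1:35869808-35930532 and AGO3 at chr1:35930718-36072500. The 3 neighbours did not respond alike, as given further on. No stretch of 100 bases was shared between the canonical transcripts of any pair of members. Shorter stretches, other isoforms and other genes were not compared, so wrong assignment of reads was not tested beyond that.

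AGO2 lies apart from the other Argonautes on chromosome 8, and its 3′ UTR of 11888 nt held 3 6mers and no longer match. TNRC6A lies at chr16:24610209-24827632, TNRC6B at chr22:40044817-40335808 and TNRC6C at chr17:77958703-78108822. DICER1 lies at chr14:95086228-95158010, DROSHA at chr5:31400494-31532196 and XPO5 at chr6:43522334-43576038, all on the minus strand.

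Values are normalised read counts, scaled within each line, so that values of the 2 lines are compared only per 1000000 of the library's listed total (per M). Depth on genes was 19.4 to 31.7 M reads in MCF10A and 23.8 to 40.3 M reads in hTERT RPE-1, and every member was far above the floor of 3 reads (at most 4.41 normalised counts). By its share of ribosomal RNA genes, hTERT RPE-1 hsa-miR-28-5p replicate 1 stood apart, with 15.1% of its listed total against 4.23% to 7.20% in the other 8 of that line. Leaving it out changed no call of a member against siNT, but ended the TNRC6B and TNRC6C calls between the mimics given further on. All 10 epithelial markers chosen for MCF10A were listed in that line, summing to 8172 to 8892 per M, against 3 listed and 24.6 to 29.7 per M in hTERT RPE-1. The 5 markers chosen for hTERT RPE-1 summed to 5407 to 6596 per M there and to 894.5 to 1012 in MCF10A, carried mainly by VIM and CTSD (means of 3964 and 1429 in hTERT RPE-1), while COL1A2 was near absent there (0.25). Of 5 genes of mature pigment epithelium, RPE65, TYR and RGR were not listed in hTERT RPE-1, RLBP1 was near absent (0.067), and BEST1 was lower there than in MCF10A (4.64 against 28.1), so these genes did not bear the label out. RPS28 fell to 14.6% and 16.1% of its siNT mean in MCF10A, and to 4.55% and 4.76% in hTERT RPE-1. The paper reports by RT-qPCR that RPS28 was itself somewhat sensitive to siNT in hTERT RPE-1, so these percents are relative to siNT alone. In MCF10A replicate 7 kept the most RPS28 with each mimic. Its normalised counts were 697 against 500 and 503 under hsa-miR-28-5p, and 785 against 554 and 532 under hsa-miR-708-5p. Since these are bulk samples, fewer cells with a transcript and less of it per cell cannot be told apart.

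Under siNT, hTERT RPE-1 held less AGO2 and XPO5 and more AGO4, DICER1, TNRC6A and AGO1 than MCF10A. AGO2 stood at 214 ± 11.7 per M (SD, n = 3) in MCF10A and 101 ± 6.66 in hTERT RPE-1, 2.12-fold lower there. XPO5 was 2.25-fold lower in hTERT RPE-1, while AGO4 was 1.67-fold and DICER1 1.46-fold higher. The hTERT RPE-1 libraries lay wholly above those of MCF10A for 4 members (AGO1, AGO4, TNRC6A and DICER1), which was so for 30.7% of the 13900 genes listed in both tables. They lay wholly below for 4 others (AGO2, AGO3, DROSHA and XPO5), against 46.7% of genes, and overlapped for TNRC6B and TNRC6C. Because each line was scaled and filtered separately, no test was run between lines on levels. Scaling both tables jointly moved every member up in hTERT RPE-1, AGO2 from a log2 difference of -1.08 to -0.82 and AGO3 from -0.42 to -0.16, and TNRC6B, near no difference at -0.01, went to 0.24.

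Per kilobase of the canonical transcript, which allows genes to be compared, XPO5 was highest in MCF10A at 23.3 per M, well clear of DROSHA (16.2), TNRC6A (15.7), AGO2 (14.7) and DICER1 (13.2). Neighbours among those 4 overlapped. TNRC6B followed at 5.53, then AGO1 (4.0), AGO3 (3.32) and AGO4 (3.15), whose neighbours overlapped, and TNRC6C was lowest at 1.37. In hTERT RPE-1 the order began with TNRC6A (21.1) and DICER1 (19.4), which overlapped, then DROSHA (11.8) and XPO5 (10.3), which also overlapped, and then AGO2 (6.93). TNRC6B (5.49), AGO4 (5.27) and AGO1 (5.02) overlapped with their neighbours, and AGO3 (2.48) and TNRC6C (1.06) were lowest in that line. AGO2 was the most abundant Argonaute transcript in both lines on this scale. With its longest annotated transcript in place of the canonical one, DICER1 stood at 10.8 in MCF10A and 15.9 in hTERT RPE-1. Its place in either order stayed the same, but overlaps were not assessed at that length.

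**Figure D2:**
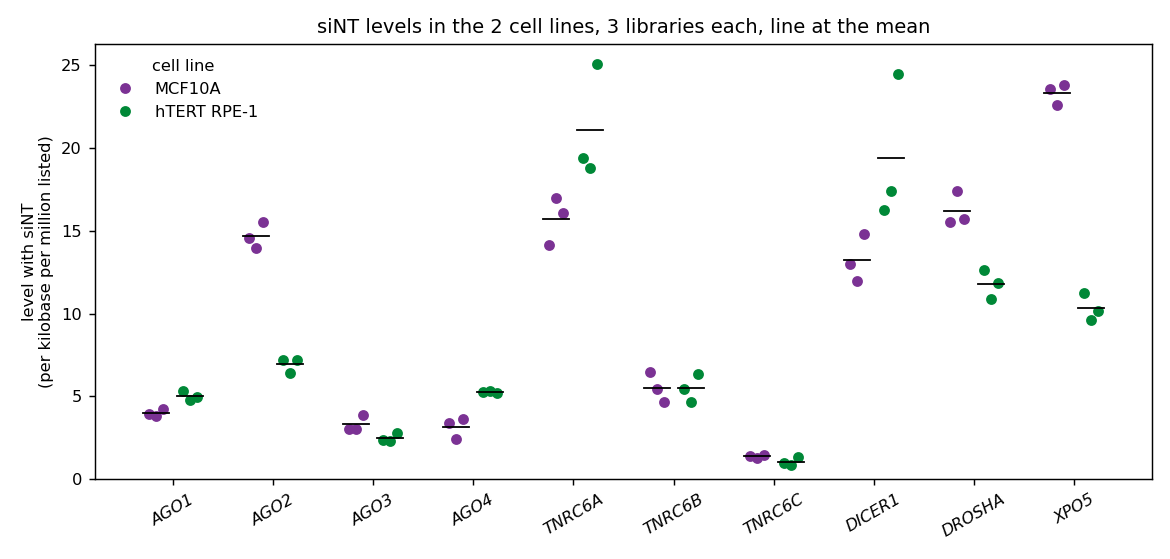
Levels under siNT per kilobase per M of the listed total, for each member in MCF10A and hTERT RPE-1, with a point for each of 3 libraries and a line at the mean. AGO2 and XPO5 sit lower in hTERT RPE-1 (6.93 and 10.3) than in MCF10A (14.7 and 23.3), and TNRC6B hardly differs.

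AGO1 fell with both mimics in both lines, and fell further in hTERT RPE-1. In MCF10A its normalised counts were 1569, 1498 and 1594 under siNT, 1263, 865 and 783 under hsa-miR-28-5p, and 869.6, 687 and 718 under hsa-miR-708-5p. For hTERT RPE-1 they were 2537, 2434 and 2374 under siNT, 899, 912 and 857 under hsa-miR-28-5p, and 752, 794 and 807 under hsa-miR-708-5p. No mimic library reached the lowest siNT library of its line, and the only loose group was MCF10A under hsa-miR-28-5p, in which replicate 7 stayed highest. The log2 fold changes in MCF10A were -0.71 ± 0.16 (SE; limma, Benjamini-Hochberg adjusted p = 0.0105) under hsa-miR-28-5p and -1.04 ± 0.16 (limma, adjusted p = 0.000804) under hsa-miR-708-5p. For hTERT RPE-1 they were -1.46 ± 0.08 (limma, adjusted p = 6.41e-07) and -1.64 ± 0.08 (limma, adjusted p = 1.17e-07). The mean AGO1 left was 36.3% and 32% of siNT in hTERT RPE-1, against 62.4% and 48.8% in MCF10A. All 4 calls held in each run that left out a library, where the change ranged from -0.92 to -0.57 and from -1.14 to -0.97 in MCF10A, and from -1.48 to -1.43 and from -1.66 to -1.61 in hTERT RPE-1.

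Per kilobase per M, AGO1 was 4.0 ± 0.20 (SD, n = 3) in MCF10A and 5.02 ± 0.27 in hTERT RPE-1 under siNT. It was 2.70 ± 0.74 and 1.93 ± 0.09 under hsa-miR-28-5p, and 2.15 ± 0.22 and 2.0 ± 0.08 under hsa-miR-708-5p. The hTERT RPE-1 libraries thus lay above those of MCF10A under siNT, below them under hsa-miR-28-5p (1.86 to 2.03 against 2.16 to 3.54) and overlapped them under hsa-miR-708-5p. Among the tested genes with an 8mer in the 3′ UTR, counted from the largest fall, AGO1 stood at 9.49% and 10.1% of the list in hTERT RPE-1, against 13.5% and 10% in MCF10A. The median log2 change of those genes in hTERT RPE-1 was -0.28 and -0.41, and in MCF10A -0.14 and -0.21, against 0.06, 0.09, -0.01 and 0.01 for genes without any match.

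**Figure D3:**
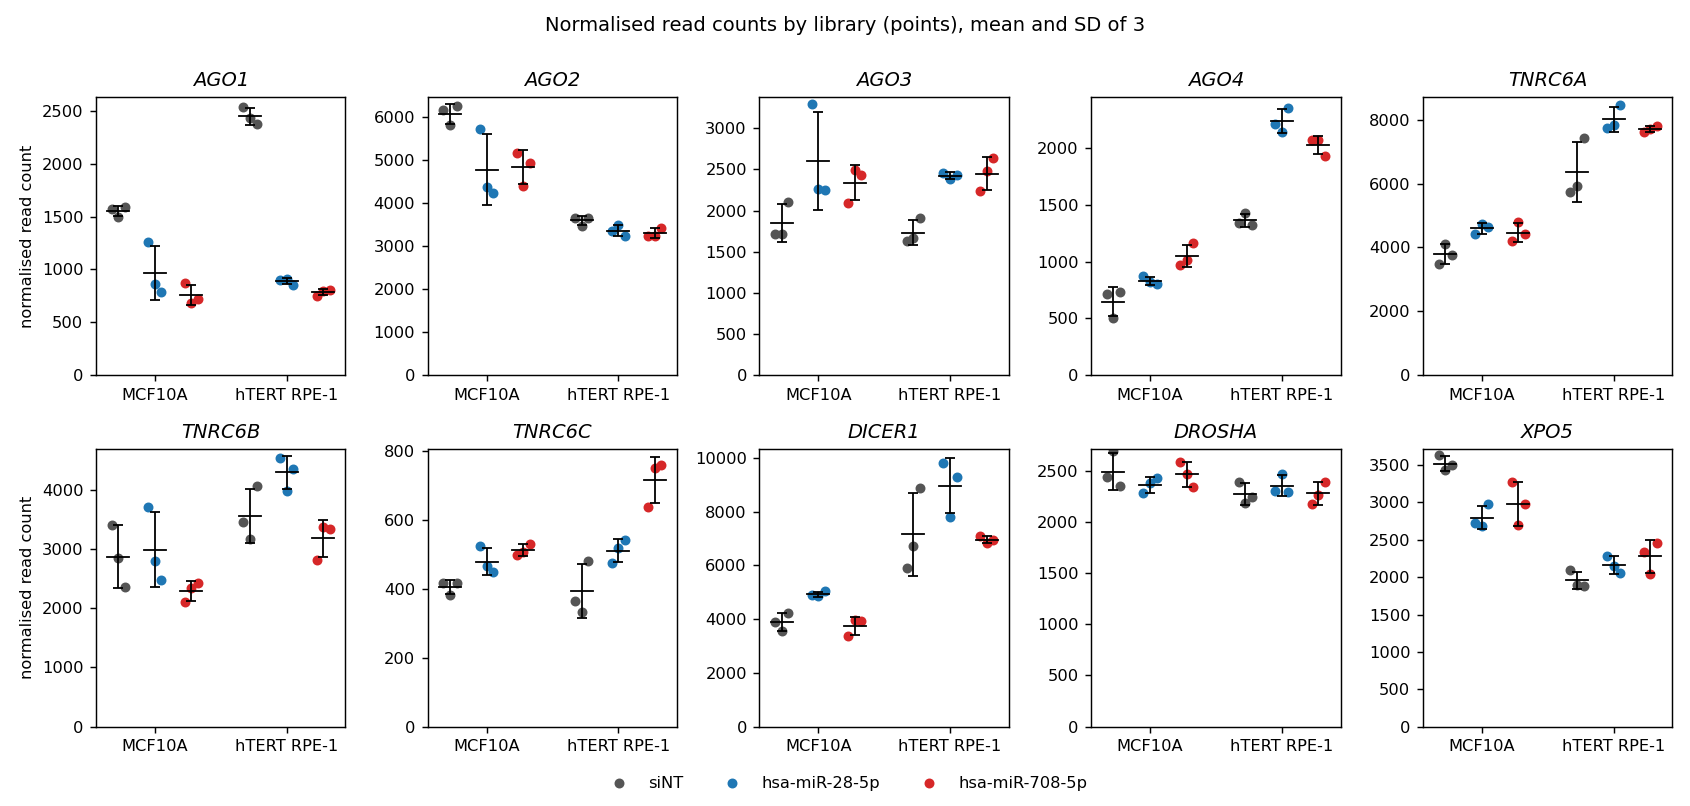
Normalised read counts of the 10 members in each library (points), with the mean and SD of 3, for siNT and each mimic in both lines. AGO1 drops in all mimic groups, and AGO4 rises most clearly in hTERT RPE-1. DROSHA stays between 2278 and 2687 in MCF10A and between 2176 and 2469 in hTERT RPE-1, counts that are scaled separately for each line.

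AGO2, the slicing Argonaute, did not pass the test in any comparison. In MCF10A its normalised counts were 6157, 5808 and 6255 under siNT, 5723, 4379 and 4240.2 under hsa-miR-28-5p and 5174, 4399.7 and 4932 under hsa-miR-708-5p. All mimic libraries lay below all siNT libraries in that line, and hsa-miR-28-5p replicate 7 came nearest to them. The log2 fold changes were -0.36 (limma, adjusted p = 0.0520) and -0.33 (limma, adjusted p = 0.0536), and with the replicate number as a block, which paired these samples, the adjusted p became 0.0187 and 0.0205. Without hsa-miR-28-5p replicate 7 the changes were -0.49 (limma, adjusted p = 0.00695) and -0.33 (0.0143), and without hsa-miR-708-5p replicate 7 they were -0.36 (0.0440) and -0.38 (0.0411). In hTERT RPE-1 AGO2 went from 3660.5, 3465 and 3666 to 3351, 3481 and 3226 under hsa-miR-28-5p, which overlapped siNT, and to 3230.3, 3231 and 3430.0 under hsa-miR-708-5p, all lower. The 95% intervals of the log2 change there ran from -0.26 to 0.06 and from -0.29 to 0.03.

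AGO3 and AGO4, Argonautes that lie beside AGO1, rose with both mimics in hTERT RPE-1. AGO3 normalised counts in hTERT RPE-1 were 1628, 1665 and 1903 under siNT, 2458, 2379 and 2434 under hsa-miR-28-5p, and 2233, 2475 and 2634 under hsa-miR-708-5p. AGO4 counts there were 1342, 1429 and 1324 under siNT, 2214, 2142 and 2355 under hsa-miR-28-5p, and 2071, 2069 and 1934 under hsa-miR-708-5p. Every mimic library lay above every siNT library for both genes. The log2 changes were 0.49 ± 0.09 (SE; limma, adjusted p = 0.00144) and 0.50 ± 0.09 (0.000709) for AGO3, and 0.71 ± 0.08 (limma, adjusted p = 4.95e-05) and 0.57 ± 0.08 (9.88e-05) for AGO4. These 4 calls held without any single library.

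In MCF10A each of these genes passed the test with 1 mimic, and the libraries spread more widely. AGO4 went from 712, 502 and 729 under siNT to 869, 816 and 799 under hsa-miR-28-5p and to 971, 1017 and 1161 under hsa-miR-708-5p. Both mimic groups lay above siNT, and hsa-miR-708-5p gave a log2 change of 0.71 ± 0.14 (limma, adjusted p = 0.00339) that held without any single library. Under hsa-miR-28-5p the AGO4 change was 0.37 (limma, adjusted p = 0.0834, and 0.0438 with the replicate block). AGO3 went from 1717, 1709.8 and 2109 to 3291, 2258 and 2254 under hsa-miR-28-5p, a log2 change of 0.48 ± 0.15 (limma, adjusted p = 0.0415), and to 2092, 2498 and 2426 under hsa-miR-708-5p, which overlapped siNT (0.34, limma, adjusted p = 0.102). The first of these leaned on hsa-miR-28-5p replicate 7, without which it was 0.30 (limma, adjusted p = 0.106), and it also missed the threshold without siNT replicate 7 or 8, without hsa-miR-28-5p replicate 8, or without hsa-miR-708-5p replicate 8 or 9 (adjusted p from 0.0501 to 0.125). The second passed without hsa-miR-28-5p replicate 7 (limma, adjusted p = 0.0295), under library size scaling (0.49, 0.0384) and in a fit of the 6 libraries compared (0.34, 0.0493).

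The make-up of the Argonaute transcripts shifted with the mimics. Per kilobase, AGO1 made up 15.9% of the summed Argonaute level in MCF10A under siNT, 10.9% under hsa-miR-28-5p and 8.51% under hsa-miR-708-5p. For hTERT RPE-1 the AGO1 share was 25.5%, then 8.94% and 8.33%. AGO4 went from 12.4% to 17.9% and 22.2% in MCF10A and from 26.8% to 42.4% and 40.6% in hTERT RPE-1, where it became the largest share on this scale. That place rests on the canonical transcript lengths used (7272 nt for AGO4 and 14595 nt for AGO2). In mean normalised counts, not divided by length, AGO2 stayed above AGO4 there (3353 and 3297 against 2237 and 2025). AGO2 remained the largest share in MCF10A, at 58.5%, 50.8% and 50.9%, and held 35.2%, 31.7% and 32.9% in hTERT RPE-1. The summed level per kilobase per M was 25.2 ± 2.02, 24.6 ± 4.40 and 25.3 ± 1.14 (SD, n = 3) across the groups of MCF10A, against 19.7 ± 0.80, 21.6 ± 0.99 and 24.0 ± 0.59 in hTERT RPE-1. The sum per M under siNT was thus lower in hTERT RPE-1, with no overlap (18.8 to 20.2 against 23.3 to 27.3). Joint scaling of both tables moved the log2 difference between the lines up for each Argonaute. AGO1 went from 0.33 to 0.59, AGO2 from -1.08 to -0.82, AGO3 from -0.42 to -0.16 and AGO4 from 0.74 to 1.01. Such moves narrow the gap in the sum, which was itself not scaled jointly, so its lack of overlap is given per M only. Values per M move with the library's total, and on that scale the median of all genes in hTERT RPE-1 rose by 0.32 (log2) under hsa-miR-708-5p.

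**Figure D4:**
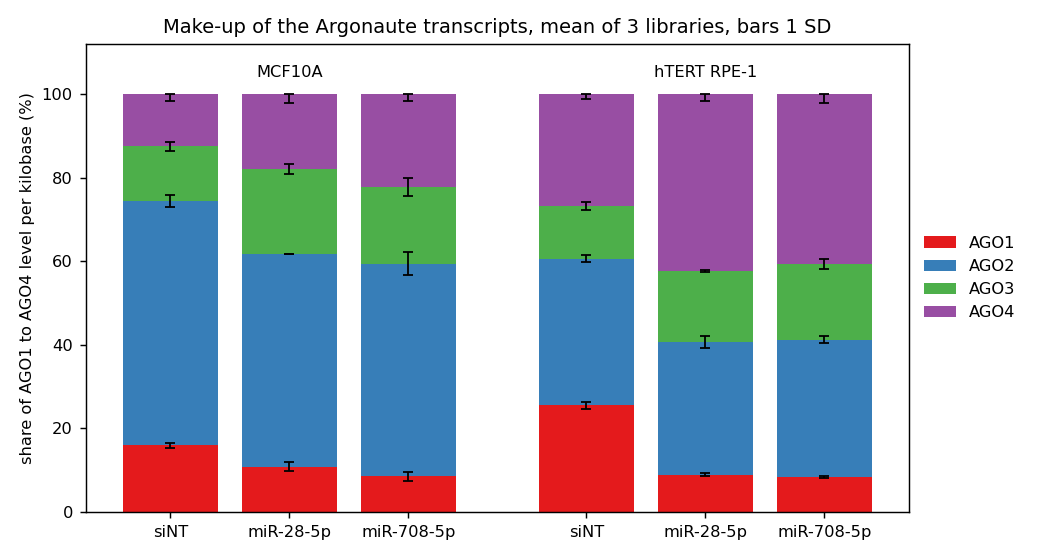
Share of AGO1, AGO2, AGO3 and AGO4 in their summed level per kilobase (%), as stacked means of 3 libraries with 1 SD at each boundary for the gene below it (drawn downwards for AGO4). The AGO1 share shrinks from 25.5% to 8.33% in hTERT RPE-1 under hsa-miR-708-5p and from 15.9% to 8.51% in MCF10A, while the AGO4 share grows.

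The TNRC6 scaffolds, which link Argonaute to deadenylation, did not move as a unit. TNRC6C, the least abundant, rose most under hsa-miR-708-5p in the hTERT RPE-1 line, from 363, 333 and 481 normalised counts under siNT to 636, 749 and 758. All 3 mimic libraries were above siNT, and the log2 change of 0.88 ± 0.14 (SE; limma, adjusted p = 0.000347) held without any single library. Under hsa-miR-28-5p the counts of 474, 517 and 539 overlapped siNT, and the change of 0.39 (limma, adjusted p = 0.0421) missed the threshold in 6 of 9 runs that left out a library (siNT replicate 1 or 2, or a mimic library, hsa-miR-28-5p replicate 2 or 3 and hsa-miR-708-5p replicate 2 or 3; adjusted p from 0.0550 to 0.157). In MCF10A TNRC6C went from 416, 381 and 416 to 523, 465 and 447 under hsa-miR-28-5p (0.24, limma, adjusted p = 0.154) and to 497, 505 and 529.9 under hsa-miR-708-5p (0.34, limma, adjusted p = 0.0419). Both groups lay above siNT, but the latter call was lost without siNT replicate 7, 8 or 9, without hsa-miR-28-5p replicate 8 or 9, or without hsa-miR-708-5p replicate 8 or 9 (adjusted p from 0.0502 to 0.125).

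TNRC6A, the most abundant scaffold, was higher in every mimic library than in every siNT library of its line. Its normalised counts in MCF10A were 3482, 4111 and 3763 under siNT, 4408, 4743 and 4647 under hsa-miR-28-5p and 4200.0, 4791 and 4406 under hsa-miR-708-5p. For hTERT RPE-1 they were 5739, 5918 and 7439.8, then 7754, 7834 and 8459, then 7615, 7715 and 7789.9, where siNT replicate 3 came close to the mimic groups. The log2 changes were 0.28 (limma, adjusted p = 0.0494) and 0.24 (0.0700, and 0.0407 with the replicate block) for MCF10A, against 0.34 (0.0195) and 0.29 (0.0321) in hTERT RPE-1. Under hsa-miR-28-5p the call was lost in MCF10A without siNT replicate 7 or 9, any hsa-miR-28-5p library, or hsa-miR-708-5p replicate 8 or 9 (adjusted p from 0.0523 to 0.160), and in hTERT RPE-1 without siNT replicate 1 or 2 or hsa-miR-28-5p replicate 3 (0.0675 to 0.0864). Under hsa-miR-708-5p in the hTERT RPE-1 line it was lost without siNT replicate 1 or 2 or any hsa-miR-708-5p library (0.0651 to 0.133), and in MCF10A it was gained without hsa-miR-708-5p replicate 7 (0.28, limma, adjusted p = 0.0424).

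TNRC6B, the scaffold with the 7mer, did not pass the test against siNT. In MCF10A its normalised counts were 3410.4, 2853 and 2354 under siNT, 3708, 2799.7 and 2471 under hsa-miR-28-5p and 2106, 2349 and 2423 under hsa-miR-708-5p. For hTERT RPE-1 they were 3460.2, 3168 and 4061, then 4538, 3990.0 and 4355, then 2821, 3373 and 3347. Every mimic group overlapped siNT, with values wide in MCF10A. The log2 changes under hsa-miR-28-5p were 0.05 (95% interval -0.30 to 0.41) in MCF10A and 0.27 (limma, adjusted p = 0.0626) in hTERT RPE-1, and under hsa-miR-708-5p -0.31 (-0.66 to 0.04) and -0.16 (-0.41 to 0.08). Without siNT replicate 3 or hsa-miR-28-5p replicate 2 of hTERT RPE-1, the second of these values became 0.37 (limma, adjusted p = 0.0186) and 0.33 (0.0489).

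Of the processing enzymes, DROSHA was the steadiest member. Its log2 changes were 0.051 and 0.0035 in hTERT RPE-1 and -0.074 and -0.014 in MCF10A, with 95% intervals that all lay between -0.27 and 0.22, although under library size scaling it rose under hsa-miR-708-5p in the former line (0.32, limma, adjusted p = 0.00986). DICER1 in MCF10A went from 3901, 3542 and 4237 normalised counts under siNT to 4886, 4875 and 5034 under hsa-miR-28-5p, all higher, and stood at 3380.3, 3984 and 3919.6 under hsa-miR-708-5p. The log2 change under hsa-miR-28-5p was 0.34 ± 0.10 (SE; limma, adjusted p = 0.0284), and it missed the threshold without siNT replicate 7 or 8 or hsa-miR-28-5p replicate 8 or 9 (adjusted p from 0.0658 to 0.105). In hTERT RPE-1 DICER1 went from 5889.7, 6707 and 8874 to 9816, 7811 and 9294 under hsa-miR-28-5p and to 7100.1, 6833 and 6957 under hsa-miR-708-5p, and siNT replicate 3 overlapped the first group. The change under hsa-miR-28-5p was 0.34 (limma, adjusted p = 0.0698), and became 0.51 (0.00617) without siNT replicate 3 and 0.44 (0.0328) without hsa-miR-28-5p replicate 2. Under hsa-miR-708-5p the DICER1 change was -0.05 (95% interval -0.27 to 0.17) in MCF10A and -0.02 (-0.33 to 0.29) in hTERT RPE-1.

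XPO5, the export receptor, fell with hsa-miR-28-5p in MCF10A and passed the test in no other comparison against siNT. Its normalised counts in MCF10A were 3628, 3430.2 and 3493 under siNT, 2722, 2689 and 2981 under hsa-miR-28-5p and 3275, 2690.4 and 2981 under hsa-miR-708-5p. All mimic libraries were below all siNT libraries, with log2 changes of -0.33 ± 0.09 (SE; limma, adjusted p = 0.0282) and -0.24 ± 0.09 (0.0692). The first missed the threshold without any 1 siNT library or without hsa-miR-28-5p replicate 7 or 8 (adjusted p from 0.0579 to 0.0993), and the second passed without hsa-miR-708-5p replicate 7 (-0.31, limma, adjusted p = 0.0220). In hTERT RPE-1 the counts were 2090.1, 1899 and 1887 under siNT, 2283, 2151 and 2052 under hsa-miR-28-5p and 2337, 2036 and 2459 under hsa-miR-708-5p. Both groups overlapped siNT from above, with changes of 0.14 (limma, adjusted p = 0.228) and 0.21 (0.0639), and the latter passed without hsa-miR-708-5p replicate 2 (0.29, limma, adjusted p = 0.0209).

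**Figure D5:**
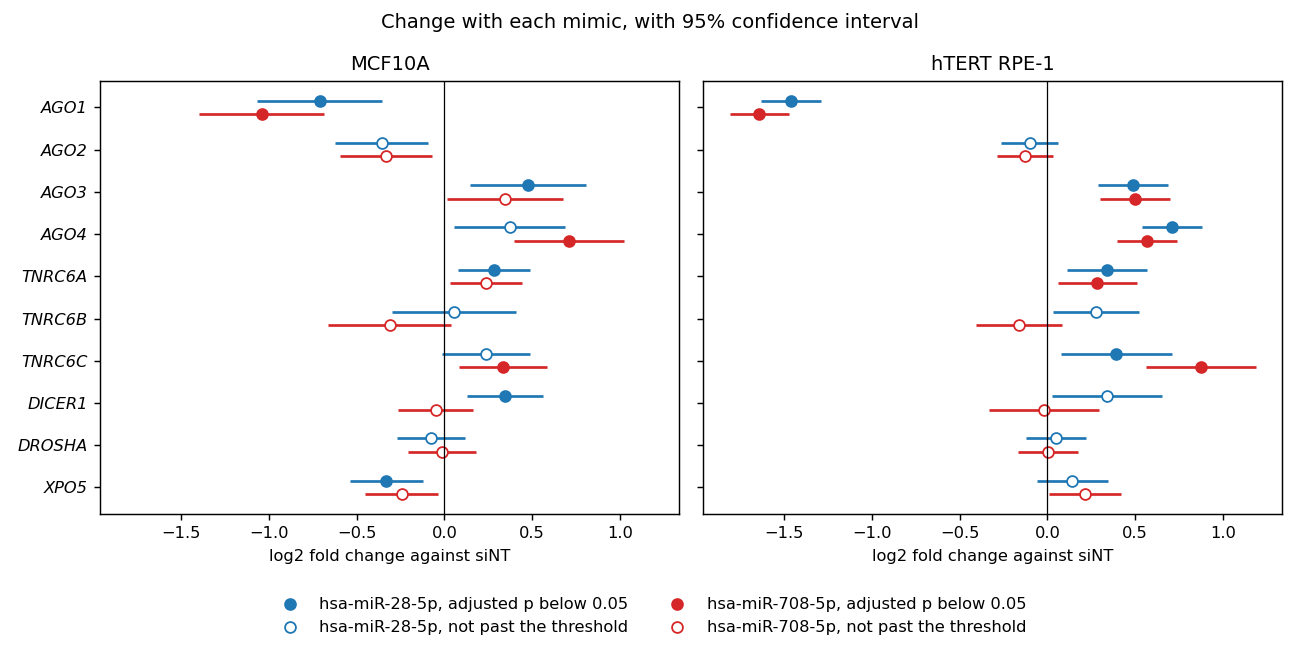
Log2 fold change of each member against siNT with its 95% confidence interval, for each mimic in each line, filled where the limma adjusted p was below 0.05. AGO1 lies from -1.64 to -0.71, and AGO3 and AGO4 lie above 0 in all 4 comparisons.

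Counted together, under hsa-miR-28-5p in MCF10A 3 members rose (AGO3, TNRC6A and DICER1), where 10.7% of the 14726 genes tested rose, and 2 fell (AGO1 and XPO5), where 12.0% fell. Under hsa-miR-708-5p in MCF10A 2 rose (AGO4 and TNRC6C), against 15.5% of genes, and 1 fell (AGO1), against 17.3%. Under hsa-miR-28-5p in the hTERT RPE-1 line 4 rose (AGO3, AGO4, TNRC6A and TNRC6C), against 23.3% of the 14527 genes tested, and 1 fell (AGO1), against 23.5%. The same 4 rose and AGO1 fell under hsa-miR-708-5p in the hTERT RPE-1 line, where 30.9% of genes rose and 31.2% fell. The 2 mimics of a line were compared with the same siNT libraries, so their values are not independent. Under shares of that size, passing the test was common among all genes in hTERT RPE-1. The median change of the members in hTERT RPE-1 was 0.31 and 0.11, and in MCF10A 0.15 and -0.03, where the median of all genes lay within 0.01 of 0. Scaling by library size instead moved the median of all genes by 0.12, 0.14, 0.09 and 0.32 in these 4 comparisons, and under it 66.1%, 67.6%, 59.4% and 71.8% of called genes rose, against 47.1%, 47.3%, 49.9% and 49.7% under the deposited scaling. That scaling ended the XPO5 call for hsa-miR-28-5p in MCF10A (-0.22, limma, adjusted p = 0.0892), and AGO4 then rose there, AGO3 and TNRC6A under hsa-miR-708-5p in MCF10A, TNRC6B and DICER1 under hsa-miR-28-5p in the other line (limma, adjusted p = 0.0309 and 0.0301), and XPO5 under hsa-miR-708-5p in that line (0.53, 0.000443). With the replicate block 5 members passed the test for hsa-miR-708-5p in MCF10A, in place of 3, and without the mean-variance trend AGO1 was the 1 member called for hsa-miR-28-5p in that line.

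The 2 mimics, which share a seed and differ in the bases after it, were compared directly in each line at the same dose and time. No member differed between them in MCF10A (limma with Benjamini-Hochberg adjustment over all genes), where 1.55% of genes did. At an unadjusted p below 0.05, 3 members (AGO4, TNRC6B and DICER1) and 2320 genes (15.8% of those tested) passed in that line. In hTERT RPE-1 2 members differed, where 21.2% of genes did. TNRC6B was lower under hsa-miR-708-5p than under hsa-miR-28-5p by a log2 difference of -0.44 ± 0.11 (SE; limma, adjusted p = 0.0197), with no overlap between the groups, and TNRC6C was higher by 0.48 ± 0.14 (limma, adjusted p = 0.0356), also with no overlap. The TNRC6B call was lost without hsa-miR-28-5p replicate 1 or 3, or without hsa-miR-708-5p replicate 1 (adjusted p from 0.0542 to 0.0763) and under library size scaling (-0.20, limma, adjusted p = 0.218), which moved the median of all genes by 0.23 and under which XPO5 passed (0.31, limma, adjusted p = 0.0290). The TNRC6C call was lost without siNT replicate 1, without hsa-miR-28-5p replicate 1 or 3, or without hsa-miR-708-5p replicate 2 or 3 (adjusted p from 0.0502 to 0.125). For AGO1 the difference was -0.33 (95% interval -0.69 to 0.02; limma, adjusted p = 0.348) in MCF10A and -0.18 (-0.35 to -0.01; limma, adjusted p = 0.117) in hTERT RPE-1, which does not show that the mimics acted alike on it. DICER1 was lower under hsa-miR-708-5p than under hsa-miR-28-5p by -0.39 (-0.61 to -0.18; limma, adjusted p = 0.0880) in MCF10A and by -0.36 (-0.67 to -0.05; 0.0967) in hTERT RPE-1, and the latter passed without siNT replicate 3 (0.0331) or hsa-miR-28-5p replicate 2 (0.0394).

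The responses of the 2 lines were then compared gene by gene, as the log2 change in hTERT RPE-1 minus that in MCF10A. For hsa-miR-28-5p 2 members differed, where 23.4% of the 13339 genes tested in both lines did. AGO1 fell further in hTERT RPE-1, by -0.75 ± 0.18 (SE; limma estimates, adjusted p = 0.00717), and XPO5 went the other way, by 0.47 ± 0.13 (adjusted p = 0.0129). For hsa-miR-708-5p 3 members differed, against 39.8% of genes. These were AGO1 at -0.60 ± 0.18 (limma estimates, adjusted p = 0.0140), XPO5 at 0.46 ± 0.13 (0.00871) and TNRC6C at 0.54 ± 0.18 (0.0231). The AGO1 and XPO5 differences passed in each of the 18 runs that left out a library, and the TNRC6C difference was lost without siNT replicate 1 or 2 or hsa-miR-708-5p replicate 2 or 3 of hTERT RPE-1 (adjusted p from 0.0586 to 0.0819). Under library size scaling the AGO1 difference for hsa-miR-708-5p missed the threshold (-0.42, limma estimates, adjusted p = 0.0746; the median of all genes moved by 0.15), and an AGO2 difference passed it (0.38, adjusted p = 0.0443). For AGO2 the deposited scaling gave 0.26 (95% interval -0.04 to 0.55) under hsa-miR-28-5p, which became 0.39 (limma estimates, adjusted p = 0.0268) without MCF10A hsa-miR-28-5p replicate 7, and AGO4 passed under hsa-miR-28-5p without MCF10A siNT replicate 8 (0.51, adjusted p = 0.0168). For RPS28 the differences were -1.68 and -1.74, in the same direction as those of AGO1. Under siNT and per M, the line where RPS28 fell further held less AGO2, AGO3, DROSHA and XPO5 and a lower Argonaute sum, and more AGO1, AGO4, TNRC6A and DICER1. Differences of this kind were common. The hTERT RPE-1 libraries lay wholly below for 46.7% and wholly above for 30.7% of the 13900 genes listed in both tables. Its summed TNRC6 level per kilobase per M was higher too, at 27.6 (24.3 to 32.8) against 22.6 (22.0 to 23.7) in MCF10A. Joint scaling brought the log2 differences of AGO3 and DROSHA nearer to none, at -0.16 and -0.20. It was not applied to either sum, but it moved each Argonaute up in hTERT RPE-1, which narrows the gap in the Argonaute sum. Whether the level of any member set the depth of repression was not tested.

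Partners of the pathway were read from 4 lists of genes, and values for them are given for MCF10A first and hTERT RPE-1 second, each with hsa-miR-28-5p before hsa-miR-708-5p. In that order, 10.7%, 15.5%, 23.3% and 30.9% of all genes tested rose and 12.0%, 17.3%, 23.5% and 31.2% fell, and the median change of all genes lay within 0.01 of 0. Of 12 microprocessor and export partners 0, 1, 3 and 4 rose and 3, 3, 2 and 1 fell, and the list's median log2 change was -0.06, -0.07, 0.07 and 0.06. HNRNPA1, an RNA-binding protein that assists the processing of some primary microRNAs, fell in all 4 comparisons (-0.83, -1.08, -0.74 and -0.72). SRSF3, a splicing factor that recognizes a motif of primary microRNAs, fell in the first 3 (-0.50, -0.44 and -0.30) and stood at -0.20 in the last (limma, adjusted p = 0.0773). ADAR, which edits double-stranded RNA, stood at -0.0039 in the first (limma, adjusted p = 0.984) and rose in the other 3 (0.85, 1.01 and 1.19). The helicase DDX5 rose in hTERT RPE-1 (0.55 and 0.31) and stood at 0.07 and 0.07 in MCF10A (limma, adjusted p = 0.685 and 0.660).

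Of 15 Dicer and loading partners 0, 0, 1 and 1 rose and 2, 5, 6 and 7 fell, with list medians of -0.20, -0.30, -0.09 and -0.30. PPP6C, the catalytic subunit of the phosphatase that resets Argonaute after target binding, fell in all 4 comparisons (-0.51, -0.48, -0.66 and -0.91). IPO8, an importin that binds Argonautes, also fell in all 4 (-0.35, -0.50, -0.45 and -0.64). TSNAX, part of a nuclease that helps load RNA duplexes, stood at -0.26 in the first (limma, adjusted p = 0.0838) and fell in the other 3 (-0.33, -0.64 and -0.59). LIMD1, an adaptor between Argonaute and TNRC6, stood at -0.34 in the first (limma, adjusted p = 0.0514) and fell in the other 3 (-0.39, -0.87 and -0.35).

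Of 25 deadenylation and decapping effectors 3, 2, 7 and 10 rose and 1, 3, 6 and 7 fell, with list medians of -0.13, -0.05, 0.11 and 0.03. CNOT6, a deadenylase, rose in all 4 comparisons (0.40, 0.37, 0.72 and 0.71). PABPC1, the poly(A)-binding protein, stood at -0.50 in the first (limma, adjusted p = 0.0896) and fell in the other 3 (-0.88, -1.10 and -1.89). PATL1, which joins deadenylation to decapping, stood at -0.28 in the first (limma, adjusted p = 0.0662) and rose in the other 3 (0.59, 0.75 and 1.57).

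Of 10 tested genes of tailing and turnover 2, 1, 2 and 1 rose and 1, 2, 2 and 4 fell, with list medians of 0.02, -0.01, -0.09 and -0.14. The ribonuclease PARN fell in MCF10A (-0.31 and -0.29) and under hsa-miR-708-5p in the other line (-0.29), and stood at -0.15 under hsa-miR-28-5p there (limma, adjusted p = 0.220). SND1, a nuclease of edited microRNAs, stood at -0.32 in the first comparison (limma, adjusted p = 0.112) and fell in the other 3 (-0.46, -0.51 and -0.82). The uridyltransferase TUT4 rose in MCF10A (0.67 and 0.44) and stood at 0.18 and 0.02 in hTERT RPE-1 (limma, adjusted p = 0.109 and 0.876). The nuclease DIS3L2 fell in hTERT RPE-1 (-0.35 and -0.49) and stood at 0.02 and -0.04 in MCF10A, while the poly(A) polymerase TENT2 rose in hTERT RPE-1 (0.39 and 0.54) and stood at -0.16 and -0.16 in MCF10A. Whether any partner's change differed between the lines is not given here.

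The pattern of the members over the 9 libraries of a line was set beside all 13339 genes, as a description in which the points share the treatments and their scaling. The gene most like AGO1, by the smaller of its Pearson correlations in the 2 lines, was NLRX1 (0.979 in MCF10A and 0.981 in hTERT RPE-1), whose 3′ UTR of 577 nt held no match to the seed. The closest genes were ZNF91 for AGO3 (0.954 and 0.945) and AVL9 for AGO4 (0.936 and 0.945). For the scaffolds they were ACVR2B for TNRC6A (0.982 and 0.933), ITPR2 for TNRC6B (0.884 and 0.930) and CEP192 for TNRC6C (0.971 and 0.927). DICER1 had TASOR (0.846 and 0.831) and XPO5 had GART (0.939 and 0.929), while DROSHA, which hardly varied, had no close match, the nearest being RBMS1 (0.617 and 0.622). In their 3′ UTRs ACVR2B held 1 7mer and 1 6mer and TASOR 1 6mer. ZNF91, AVL9, ITPR2, CEP192, GART and RBMS1 held no match there. Matches in the coding sequences of these closest genes are not given here.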

How the data were processed

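PolyA+ RNA from 18 libraries, in biological triplicate per the study's methods, was sequenced by the study, and p-values measure the spread between these replicates. The authors trimmed the reads, aligned them to hg38 with HISAT2 2.1.0 and quantified them in Partek Flow against RefSeq transcripts with its E/M algorithm. The deposited signal values are estimated read counts scaled by size factors of the median-of-ratios kind within each cell line, as the values show. Estimated reads shared among transcripts were not whole, since only 82.6% to 86.6% of low values per library were whole multiples of 1 read (tolerance 0.05), so no count model was used. Deposited tables of the authors' DESeq2 fold changes and p-values were not used.

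Values were tested as log2(value + 1) with limma 3.58.1 (R 4.3.3; mean-variance trend, 9 libraries per line) for genes at 10 or more in at least 3 libraries, with Benjamini-Hochberg adjustment at 0.05 over all genes. Fold changes are on that log2(value + 1) scale. Line differences combined both standard errors. Same-numbered libraries of each mimic and siNT deviated together in MCF10A (correlations 0.111 to 0.302), as did those of the 2 mimics in hTERT RPE-1 (0.134 to 0.278). The scripts were tested on simulated data. All 10 members are named, with RPS28, up to 3 genes per list and line that passed with both mimics with the largest mean change, and the closest gene of each member, of which 1 is not reported here. The members and lists were chosen with earlier results of these data known. Alternatives covered pseudocounts, filters, scalings, moderation, the replicate block, a 1.5-fold minimum and leaving out each library. Sequences came from RefSeq and GENCODE 44, and 1 of the 2 mature microRNAs was matched.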

Additional observations from a re-analysis of the deposited data

Results flagged for a closer look

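Of the 10 genes, 3 responded differently in the 2 lines by the test of the difference itself, on the log2 scale as hTERT RPE-1 minus MCF10A. That test called 2 members for hsa-miR-28-5p, where it called 23.4% of all genes, and 3 for hsa-miR-708-5p, where it called 39.8%. The members thus did not differ between the lines more often than all genes did. AGO1 differed by -0.75 under hsa-miR-28-5p and by -0.60 under hsa-miR-708-5p, lower in hTERT RPE-1. The latter difference missed the threshold under library size scaling. XPO5 differed by 0.47 and 0.46, higher in hTERT RPE-1. TNRC6C differed by 0.54 under hsa-miR-708-5p, higher in hTERT RPE-1, a call lost in 4 of the 18 runs that left out a library. Beside these line differences, the siNT level of AGO1 was 1.25-fold higher and that of XPO5 2.25-fold lower in hTERT RPE-1. The part of these levels in the differences was not tested.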

How the results depend on the processing

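The AGO1 calls against siNT were kept in each alternative and each left-out run, as were those of AGO3 and AGO4 in hTERT RPE-1 except under a 1.5-fold minimum, where both AGO3 calls and the AGO4 call for hsa-miR-708-5p ended. That minimum left 1 called member for hsa-miR-28-5p in MCF10A, 2 for either mimic in hTERT RPE-1, 0 between the mimics in hTERT RPE-1 (limma), and 1 and 1 for the line differences. Without the mean-variance trend 1 member was called for hsa-miR-28-5p in MCF10A and 1 between the mimics in hTERT RPE-1, and a fit of 6 libraries called 3 for the former. Library size scaling and the replicate block each called 5 for hsa-miR-708-5p in MCF10A. The replicate block called 1 between the mimics in MCF10A (DICER1, limma, adjusted p = 0.0357), and it changed no other call than those given with the results. Same-numbered libraries of the 2 mimics there had correlations of 0.121, 0.025 and 0.177. Those of each mimic and siNT in hTERT RPE-1 ran from 0.0214 to 0.151. Each library set against another group correlated best with its own number, with 1 exception, replicate 8 between the mimics in MCF10A.

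Leaving out 1 library gave 1 to 6 called members for hsa-miR-28-5p and 2 to 6 for hsa-miR-708-5p in MCF10A, 3 to 7 and 4 to 5 in hTERT RPE-1, 0 to 0 and 0 to 3 between the mimics in MCF10A and hTERT RPE-1, and 2 to 3 and 2 to 3 for the line differences. For the siNT levels it gave 8 to 9 members without overlap, and with the other scalings included the lowest number was 7. Lack of overlap was common among all genes too. With every library kept, 30.7% of the 13900 genes listed for both lines were wholly higher in hTERT RPE-1 and 46.7% wholly lower. Shares of all genes in the left-out runs are not given here, so these member counts have no matching background.

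Only uncalled changes turned direction. Under library size scaling DROSHA was 0.037 and 0.13 in MCF10A (hsa-miR-28-5p first), DICER1 0.094 and 0.30 under hsa-miR-708-5p in MCF10A and hTERT RPE-1, AGO2 0.19 and TNRC6B 0.16 under hsa-miR-708-5p in the hTERT RPE-1 line, and AGO1 0.051 between the mimics there. Under upper quartile scaling DICER1 was 0.00062 and 0.0073 and DROSHA 0.036. Without 1 library, TNRC6B under hsa-miR-28-5p in MCF10A ran from -0.11 to 0.19, DROSHA under hsa-miR-708-5p from -0.056 to 0.042 in MCF10A and from -0.033 to 0.041 in hTERT RPE-1, and DICER1 under hsa-miR-708-5p from -0.12 to 0.025 and from -0.15 to 0.15. The causes were not tested.

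Over all genes, library size scaling called 4650 between the mimics in hTERT RPE-1 in place of 3084, and there 84.8% of called genes were higher in place of 46.5%. In MCF10A 150 without the trend and 643 with the replicate block stood in place of 228 between the mimics. The 1.5-fold minimum left 1902 and 2897 genes of 3347 and 4835 in MCF10A, 4077 of 6798 for hsa-miR-28-5p in the other line, and 1664 of 3084 between the mimics there. In the other alternatives, left-out runs aside, the number of genes called moved by at most 1.5-fold. Depth limited none of the members.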
